A study of Homo sapiens with 42 samples.

Results

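F2RL3, CCDC8, SNAPC5 and UCP2 are the 4 genes described here, of 58243 gene IDs in the deposited counts of K562 cells. They were chosen from the mRNA response to JTE-607. F2RL3 and CCDC8 had the largest falls at 6 h and SNAPC5 and UCP2 the largest at 18 h, among called genes with a symbol, a mean of at least 10 CPM (counts scaled to a common library total) in the higher group and treated libraries apart from the controls. K562 is an established human line derived from chronic myeloid leukaemia that depends on the BCR-ABL1 kinase. Untreated cells (CTRL) were compared with cells given 1 μM imatinib (IM), which inhibits that kinase, for 1, 6 or 18 h. Other cells received 5 μM JTE-607 (JTE), an inhibitor of the nuclease CPSF73, for 1, 6 or 18 h, or 110 mM KCl, an osmotic stress, for 1 or 3 h. Poly(A) mRNA of whole cells was sequenced in all 9 groups, and nuclear RNA depleted of ribosomal RNA in CTRL, IM 1h, IM 18h, JTE 1h and KCl 1h. Each group had 3 biological replicates of the same line. The labels give CTRL no time point.

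Most messenger RNAs get their 3′ end when CPSF73 cuts the new transcript a short way past a poly(A) signal, and a poly(A) tail is then added. The 4 genes act in unrelated places. F2RL3 encodes PAR4, a receptor on the cell surface that thrombin switches on by cutting it, best known from platelets. CCDC8 encodes an adaptor that works with the scaffold OBSL1 and the ubiquitin ligase subunit CUL7, a complex named for the growth disorder caused by its loss. SNAPC5 encodes a small subunit of SNAPc, which binds the promoters of small nuclear RNA genes. UCP2 encodes a carrier of the inner mitochondrial membrane.

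The last 30 bases of each transcript are shown first, because JTE-607 acts on the step that makes this end. F2RL3 (ENSG00000127533) lies on the + strand of chromosome 19, and CCDC8 (ENSG00000169515) on the - strand of the same chromosome. SNAPC5 (ENSG00000174446) and UCP2 (ENSG00000175567) lie on the - strands of chromosomes 15 and 11. Ends are those of the MANE Select transcripts in GENCODE 44, on hg38, and the bases belong to the last exon. For CCDC8 the end in the annotation of the count files, 43 bases earlier, is also shown. Capitals mark a hexamer that differs from AATAAA, the common poly(A) signal, by 1 base.
F2RL3, chr19:16892577-16892606: cggttgtaagccttgcacgggacagaccac
CCDC8, chr19:46410329-46410358: gccctcggcaccagaggtgtggatttgcta
CCDC8 in the count files, chr19:46410372-46410401: AGTAAAagcgtctgaaaaatgcattcaaaa
SNAPC5, chr15:66493468-66493497: tttttAGTAAAgatgggatttttccatgtt
UCP2, chr11:73974672-73974701: cttgtcatcCATAAAgcaagctcaaccttg

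None of the 4 MANE Select ends held AATAAA or ATTAAA on the transcribed strand. Over 12577 tested protein-coding genes with a MANE Select transcript, 73.2% held either of these in the last 30 bases. A further 10 one-base variants (AGTAAA, then TATAAA, then CATAAA, then GATAAA, then ACTAAA, then AAGAAA, then AATATA, then AATACA, then AATAGA and then AATGAA) were searched after the 4 ends had been seen. At the MANE Select ends, SNAPC5 held AGTAAA and UCP2 held CATAAA, and 11.8% of all genes held a variant and neither common form. F2RL3 held none of the 12 hexamers, as did 14.96% of genes. CCDC8 held none at its MANE Select end, and AGTAAA at the end given in the count files. SNAPC5 reached 3333 bases further in the count files, and the last 30 bases there held none of the 12. These matches describe letters in a short window, and the use of any signal was not measured.

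Counts were scaled with TMM factors and are given as CPM, with the mean ± SD of 3 libraries. All 4 genes passed the filter on low counts in both fractions, and their lowest count in any library was 45. In whole-cell mRNA, fewer cells of a type and less RNA per cell cannot be told apart. Fold changes against mRNA CTRL below are descriptions without a test, since the CTRL libraries helped to choose the genes. Of all 18095 genes tested in mRNA, 0.851% were called against CTRL at 1 h of JTE-607, 13.2% at 6 h and 5.39% at 18 h. A call required that edgeR's quasi-likelihood test gave an adjusted p below 0.05 (Benjamini-Hochberg) and that the log2 fold change exceeded 0.6 up or down.

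F2RL3 mRNA was lowest after 6 h of JTE-607 and partly back at 18 h. The CTRL libraries held 17.3, 22.5 and 32.2 CPM, the widest spread of the 4 genes in CTRL. With JTE-607 they held 14.0, 13.5 and 14.3 CPM at 1 h, 2.79, 3.02 and 3.74 CPM at 6 h, and 8.67, 11.4 and 9.99 CPM at 18 h. Every JTE-607 library lay below every CTRL library. The log2 fold changes were -0.78 (SE 0.28), -2.91 (SE 0.32) and -1.26 (SE 0.29), so the 6 h level was 7.50-fold lower. Imatinib gave another course, with 21.6 ± 4.28 CPM at 1 h, 6.44 ± 3.40 CPM at 6 h and 3.57 ± 0.63 CPM at 18 h. The 6 h imatinib libraries spread from 2.69 to 9.31 CPM, with replicate 2 the lowest. With KCl the levels were 17.2 ± 4.86 CPM at 1 h and 11.6 ± 1.23 CPM at 3 h. In the order of the 9 group means, from JTE 6h at 3.18 CPM up to CTRL at 24.02 CPM, each group's libraries overlapped those of the next, except that KCl 3h lay wholly below JTE 1h.

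CCDC8 mRNA was lower with JTE-607 and close to CTRL with imatinib. The CTRL libraries held 41.0, 32.4 and 40.1 CPM. With JTE-607 they held 23.2, 32.8 and 28.2 CPM at 1 h, 4.65, 8.48 and 5.03 CPM at 6 h, and 16.5, 20.7 and 15.2 CPM at 18 h. The 6 h and 18 h libraries lay below all CTRL libraries, while those at 1 h overlapped them. The log2 fold changes were -0.43 (SE 0.20), -2.64 (SE 0.22) and -1.12 (SE 0.20). Imatinib libraries read 37.4 ± 5.56, 36.1 ± 6.17 and 36.4 ± 1.98 CPM after 1, 6 and 18 h, where log2 fold changes were -0.02, -0.07 and -0.06. KCl libraries read 31.8 ± 6.37 CPM at 1 h and 27.9 ± 6.27 CPM at 3 h and overlapped CTRL. In the order of the means, JTE 6h stood apart from JTE 18h and JTE 18h from KCl 3h, and each of the others overlapped the next.

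SNAPC5 mRNA was at the CTRL level after 1 h of JTE-607, lower at 6 h and lowest at 18 h. The CTRL libraries held 44.4, 43.1 and 43.4 CPM. With JTE-607 they held 42.9, 48.4 and 43.8 CPM at 1 h, 19.4, 23.1 and 19.8 CPM at 6 h, and 10.5, 10.8 and 10.2 CPM at 18 h. The libraries of CTRL, 6 h and 18 h did not overlap. The log2 fold changes were 0.05 (SE 0.12), -1.07 (SE 0.12) and -2.05 (SE 0.13), so the 18 h level was 4.15-fold lower. Imatinib also gave lower levels with time, from 45.3 ± 5.21 CPM at 1 h to 32.1 ± 4.19 CPM at 6 h and 22.7 ± 2.88 CPM at 18 h. With KCl the level was 43.1 ± 5.63 CPM at 1 h and 44.2 ± 4.56 CPM at 3 h, overlapping CTRL. In the order of the means, JTE 6h and IM 18h overlapped, IM 6h stood apart on both sides, and the 5 highest groups each overlapped the next.

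UCP2 mRNA was lower with JTE-607 and higher with imatinib at 18 h. The CTRL libraries held 83.9, 88.2 and 73.5 CPM. With JTE-607 they held 86.0, 78.8 and 76.7 CPM at 1 h, 55.8, 63.3 and 70.1 CPM at 6 h, and 17.0, 26.7 and 17.2 CPM at 18 h. The 1 h libraries overlapped CTRL, and those at 6 h and 18 h lay below it without overlap. The log2 fold changes were -0.02 (SE 0.13), -0.38 (SE 0.13) and -2.02 (SE 0.14), so the 18 h level was 4.05-fold lower. Imatinib libraries read 79.5 ± 6.90 CPM at 1 h, 93.9 ± 4.87 CPM at 6 h and 119.4 ± 2.86 CPM at 18 h, and the last stood above every other group. KCl libraries read 79.3 ± 9.34 CPM at 1 h and 89.8 ± 8.07 CPM at 3 h. From KCl 1h, the third lowest mean, up to IM 6h each group overlapped the next.

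**Figure D1:**
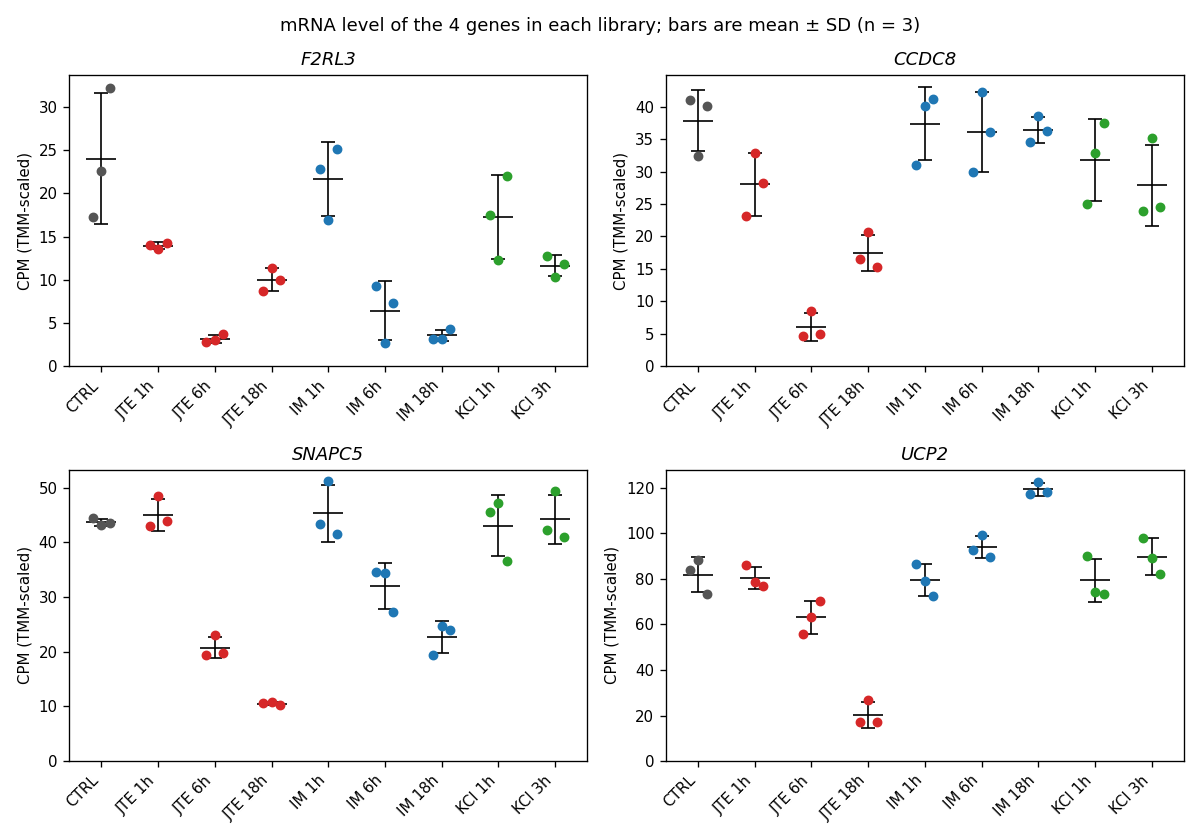
CPM (vertical axis, from 0) of the 4 genes in the 27 mRNA libraries, by group; points are libraries, bars the mean ± SD of 3. F2RL3 and CCDC8 are lowest at 6 h of JTE-607, at 3.18 and 6.05 CPM, and SNAPC5 and UCP2 at 18 h, at 10.5 and 20.3 CPM.

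The choice had a narrow margin at 6 h as well as at 18 h. At 6 h, 594 genes met all of its terms, and the gene after CCDC8 was PYCR3, with a log2 fold change of -2.50 against -2.64. At 18 h, 221 genes met them, and the gene after UCP2 was TLCD1, at -1.92 against -2.02. Each gene was lowest at the time that chose it, which the choice favours, so the shape of its JTE-607 course is no independent result. The values of the genes at the time that did not choose them were -1.26 for F2RL3 and -1.12 for CCDC8 at 18 h, and -1.07 for SNAPC5 and -0.38 for UCP2 at 6 h.

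**Figure D2:**
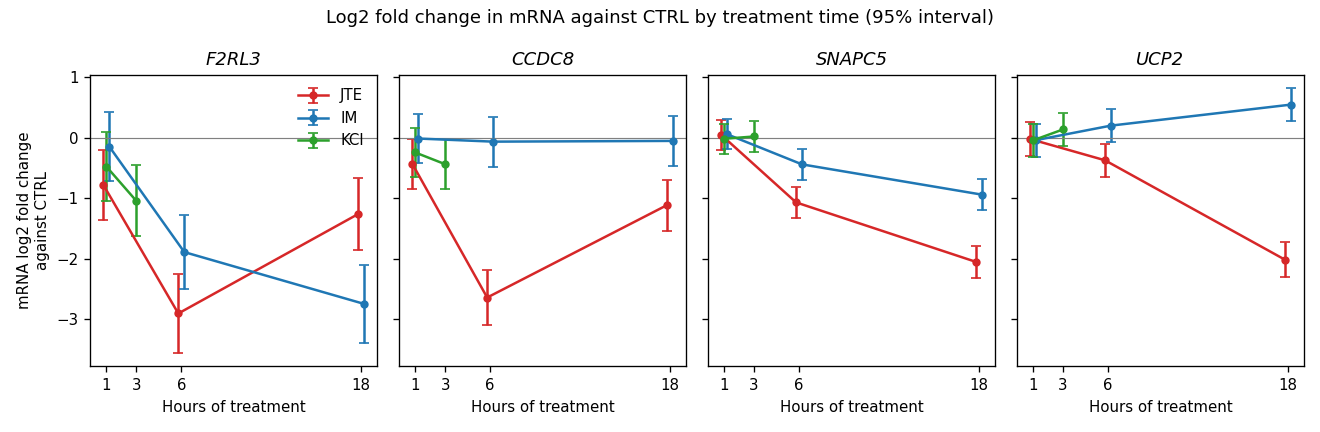
Log2 fold change in mRNA against CTRL (vertical axis) by hours of treatment (horizontal axis), with 95% intervals from the edgeR fit. At 18 h of imatinib F2RL3 stands at -2.75, SNAPC5 at -0.94, CCDC8 at -0.06 and UCP2 at 0.54.

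Nuclear RNA libraries took no part in the choice, and there the question was whether the 4 genes responded to 1 h of JTE-607. Against nuclear CTRL, 1 of the 4 was called, F2RL3, where 8.52% of 21929 genes were called. F2RL3 held 40.9, 39.6 and 37.7 CPM in CTRL and 22.9, 22.4 and 19.0 CPM in JTE 1h. The groups did not overlap, and F2RL3 fell by 0.88 on the log2 scale (SE 0.17, p adjusted in edgeR = 0.00193), to a level 1.84-fold lower. CCDC8 held 50.1, 56.9 and 53.9 CPM in CTRL and 34.6, 38.7 and 40.0 CPM in JTE 1h. These groups were also apart, but the log2 fold change of -0.51 (SE 0.10, p adjusted in edgeR = 0.00299) was short of the 0.6 a call requires. SNAPC5 stood at 39.5 ± 4.31 CPM in CTRL and 44.6 ± 3.54 CPM in JTE 1h, with overlapping libraries (log2 fold change 0.18, 95% interval -0.07 to 0.42, p adjusted in edgeR = 0.429). UCP2 stood at 133.0 ± 5.78 and 114.9 ± 8.004 CPM (log2 fold change -0.21, 95% interval -0.40 to -0.02, p adjusted in edgeR = 0.17). Every UCP2 library of JTE 1h lay below every CTRL library.

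F2RL3 also fell in nuclear RNA after 18 h of imatinib and after 1 h of KCl. At 18 h of imatinib, 2 of the 4 genes were called, F2RL3 and SNAPC5, where 32.6% of genes were called. F2RL3 held 5.76, 9.46 and 11.4 CPM there and fell by 2.16 on the log2 scale (SE 0.18, p adjusted in edgeR = 2.33e-08). SNAPC5 held 15.3, 16.8 and 17.0 CPM, against 44.4, 37.2 and 36.7 CPM in CTRL, and fell by 1.27 (SE 0.12, p adjusted in edgeR = 9.2e-08). For both genes the IM 18h libraries lay far below CTRL without overlap. UCP2 went from 133.0 ± 5.78 to 171.6 ± 14.8 CPM (log2 fold change 0.37, SE 0.09, p adjusted in edgeR = 0.00243), short of the fold threshold. CCDC8 went from 53.7 ± 3.41 to 44.2 ± 3.36 CPM (log2 fold change -0.28, p adjusted in edgeR = 0.0331), also short of it.

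After 1 h of KCl, 1 of the 4 genes was called in nuclear RNA, where 23.8% of genes were called. F2RL3 held 25.2, 24.4 and 17.9 CPM, all below CTRL, and fell by 0.81 on the log2 scale (SE 0.17, p adjusted in edgeR = 0.00103). CCDC8 had a log2 fold change of -0.21 (p adjusted in edgeR = 0.165), SNAPC5 of 0.01 (p adjusted in edgeR = 0.974) and UCP2 of -0.02 (p adjusted in edgeR = 0.925). After 1 h of imatinib, edgeR called 0 of the 4 genes, where 0.0456% of genes were called; 1 gene had an unadjusted p under 0.05, and DESeq2 called 0. That gene was F2RL3, whose libraries at 29.9, 26.2 and 27.2 CPM lay below all CTRL libraries (log2 fold change -0.51, 95% interval -0.86 to -0.15, p adjusted in edgeR = 0.879).

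**Figure D3:**
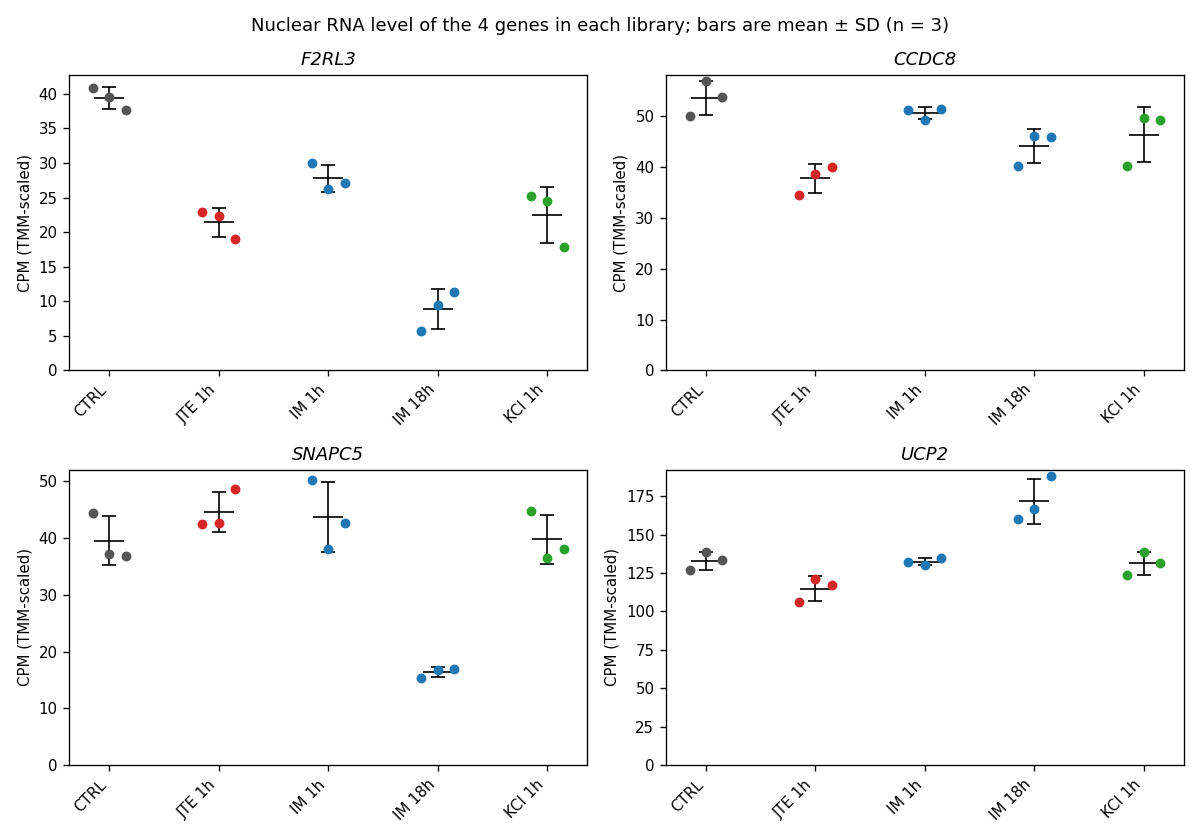
CPM (vertical axis, from 0) of the 4 genes in the 15 nuclear RNA libraries, by group; points are libraries, bars the mean ± SD of 3. F2RL3 is below its CTRL mean of 39.4 CPM in every treated library, SNAPC5 is lowest in IM 18h, at 16.4 CPM, and UCP2 is highest there, at 171.6 CPM.

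In mRNA, contrasts between treated groups that the choice did not use were tested next. At 1 h, JTE-607 was set against imatinib for the same time, and edgeR called 0 of the 4 genes, where 1.09% of genes were called. Unadjusted p-values were under 0.05 for 2 genes, F2RL3 and CCDC8, and DESeq2 called 0. The log2 fold changes were -0.63 for F2RL3 (95% interval -1.21 to -0.05, p adjusted in edgeR = 0.54) and -0.42 for CCDC8 (95% interval -0.83 to -0.003, p adjusted in edgeR = 0.636). For SNAPC5 and UCP2 they were -0.01 (95% interval -0.26 to 0.24) and 0.02 (95% interval -0.26 to 0.29), both at a p adjusted in edgeR of 1. Against KCl for 1 h, edgeR called 0 of the 4, where 4.29% of genes were called, with 0 unadjusted p-values under 0.05 and 0 calls by DESeq2. The largest difference there was F2RL3 at -0.30 (95% interval -0.88 to 0.28).

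At 6 h, JTE-607 against imatinib could be tested for the genes chosen at 18 h. Of these, 1 of 2 was called, where 23.8% of genes were called. SNAPC5 held 19.4, 23.1 and 19.8 CPM with JTE-607 and 34.5, 34.5 and 27.2 CPM with imatinib, and was lower with JTE-607 by a log2 fold change of -0.63 (SE 0.12, p adjusted in edgeR = 0.000393). Leaving out IM 6h replicate 1 or 2 or JTE 6h replicate 1 or 3 brought it to between -0.57 and -0.59, under the fold threshold. UCP2 was at 63.1 ± 7.17 CPM with JTE-607 and 93.9 ± 4.87 CPM with imatinib, with a log2 fold change of -0.57 (SE 0.13, p adjusted in edgeR = 0.00175). It passed the fold threshold without IM 6h replicate 3 (-0.61) or JTE 6h replicate 3 (-0.65). Neither gene's groups overlapped. From 1 h to 6 h of JTE-607, 1 of the 2 was called, where 9.23% of genes were called. SNAPC5 fell by 1.12 on the log2 scale (SE 0.12, p adjusted in edgeR = 1.92e-06), and UCP2 had a log2 fold change of -0.35 (SE 0.13, p adjusted in edgeR = 0.0872).

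At 18 h, JTE-607 against imatinib could be tested for the genes chosen at 6 h, and these went opposite ways. Both were called, where 30.3% of genes were called. F2RL3 held 8.67, 11.4 and 9.99 CPM with JTE-607 and 3.20, 3.21 and 4.29 CPM with imatinib, and was higher with JTE-607 by 1.49 (SE 0.31, p adjusted in edgeR = 0.000514), or 2.80-fold. CCDC8 held 16.5, 20.7 and 15.2 CPM with JTE-607 and 34.5, 38.5 and 36.2 CPM with imatinib, and was lower with JTE-607, with a log2 fold change of -1.06 (SE 0.20, p adjusted in edgeR = 0.000209). From 1 h to 18 h of JTE-607, 1 of the 2 was called, where 5.86% of genes were called. CCDC8 fell by 0.68 on the log2 scale (SE 0.20, p adjusted in edgeR = 0.0331). Leaving out JTE 1h replicate 2 or 3, or replicate 1 or 3 of JTE 18h, ended the call, with values from -0.56 to -0.68. F2RL3 had a log2 fold change of -0.48 (95% interval -1.08 to 0.11, p adjusted in edgeR = 0.319).

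The time course of imatinib was tested against its own 1 h group. From 1 h to 6 h, 1 of the 4 genes was called, where 8.20% of genes were called. F2RL3 fell by 1.74 on the log2 scale (SE 0.29, p adjusted in edgeR = 0.000321), from 22.9, 16.9 and 25.2 CPM. SNAPC5 had a log2 fold change of -0.50 (SE 0.12, p adjusted in edgeR = 0.00783), short of the fold threshold. From 1 h to 18 h, 2 of the 4 were called, where 29.3% of genes were called. F2RL3 fell by 2.60 (SE 0.31, p adjusted in edgeR = 8.62e-07), or 6.06-fold, and SNAPC5 by 1.00 (SE 0.12, p adjusted in edgeR = 1.27e-06). UCP2 had a log2 fold change of 0.59 (SE 0.13, p adjusted in edgeR = 0.00106), just short of the fold threshold, and passed it without IM 1h replicate 1 (0.63). CCDC8 had log2 fold changes of -0.05 at 6 h (95% interval -0.46 to 0.36) and -0.04 at 18 h (95% interval -0.45 to 0.37). From 1 h to 3 h of KCl, edgeR called 0 of the 4 genes, where 3.29% of genes were called, with 0 unadjusted p-values under 0.05 and 0 calls by DESeq2. F2RL3 had the largest difference there, -0.57 (95% interval -1.15 to 0.01, p adjusted in edgeR = 0.354).

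**Figure D4:**
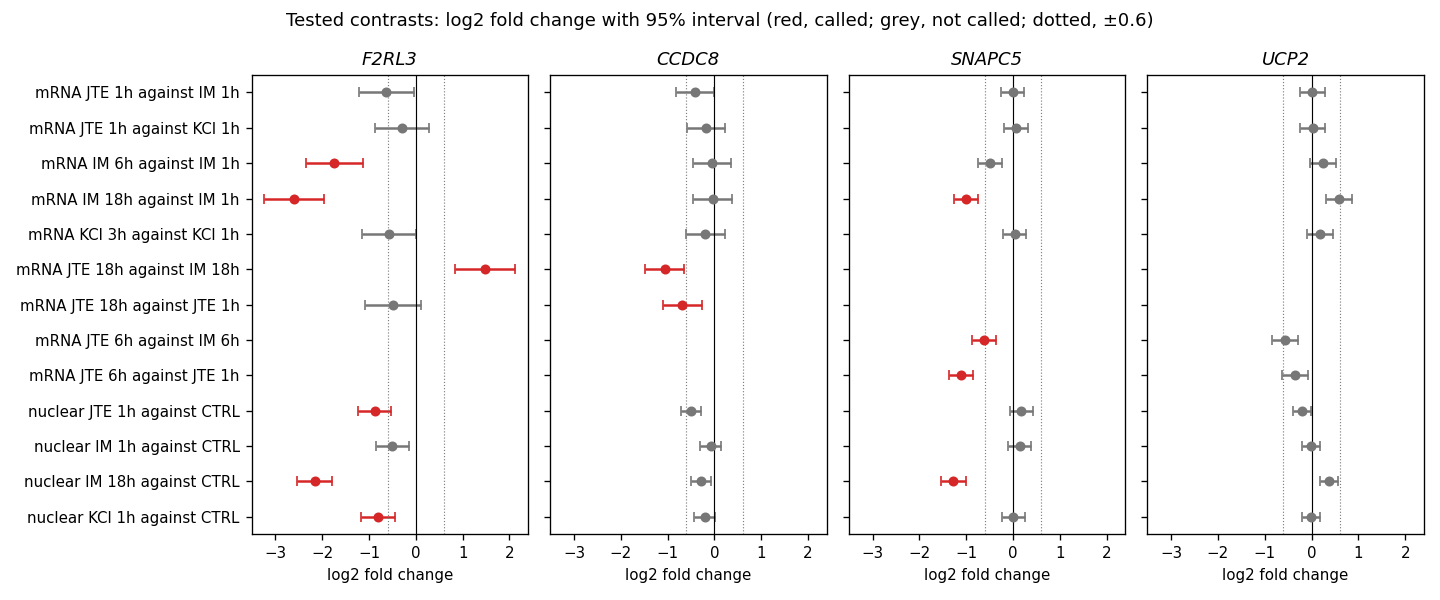
Log2 fold change (horizontal axis) with its 95% interval in the 13 tested contrasts, for the 4 genes; red points were called, grey ones were not, and dotted lines mark ±0.6. F2RL3 was called in 6 of its 11 contrasts, SNAPC5 in 4 of 11, CCDC8 in 2 of 11 and UCP2 in 0 of 11. The share of all genes called ran from 0.0456% to 32.6% by contrast.

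Across the 13 contrasts, 44 pairs of gene and contrast were tested and 12 were called, 11 of them lower. The share of all genes called in a contrast ran from 0.0456% in nuclear IM 1h to 32.6% in nuclear IM 18h. F2RL3 was called in 6 of 11, SNAPC5 in 4, CCDC8 in 2 and UCP2 in 0. These sets differ, since only F2RL3 and CCDC8 were tested with JTE 18h, and only SNAPC5 and UCP2 with JTE 6h. The tests of UCP2 thus leave out JTE 18h, where its mRNA was lowest. For UCP2, edgeR gave an unadjusted p under 0.05 in 5 of the 11 contrasts, and DESeq2 also called it in 0. The shared libraries mean that these contrasts are not independent of each other.

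The partners of the 4 genes were read from 4 lists with 64 further genes, of which 57 passed the count filter in mRNA and 58 did in nuclear RNA. At 1, 6 and 18 h of JTE-607, 2, 6 and 5 of them were called in mRNA, where 0.851%, 13.2% and 5.39% of all genes were called, and 1 in nuclear RNA at 1 h, where 8.52% of genes were called. Among 17 tested genes of PAR and thrombin signalling, 4 fell at 6 h and 0 rose. They were P2RY1, an ADP receptor of platelets (log2 fold change -0.65), TBXA2R, the thromboxane receptor (-1.22), PLCB3, a phospholipase that Gq activates (-0.70), and ARRB1, an arrestin that silences receptors (-0.65). P2RY1 was the one of the 17 called at 18 h (-0.69, p adjusted in edgeR = 0.000253). F2R, which encodes another thrombin receptor, PAR1, was not called at any of these times and read 25.7 CPM in CTRL and 25.1 CPM at 6 h. The median log2 fold change of the 17 at 6 h was -0.13, beside 0.03 over all tested genes. At 1 h and 18 h the median was 0.02 and 0.04, beside 0.006 and -0.01. In nuclear RNA at 1 h the median of the listed genes was -0.10, beside -0.006.

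The 8 partners of CCDC8 gave 1 call in the 4 JTE-607 comparisons. OBSL1, the scaffold that CCDC8 works with, rose from 19.6 ± 0.99 to 30.1 ± 2.62 CPM at 18 h (log2 fold change 0.62, SE 0.15, p adjusted in edgeR = 0.0121). CUL7 was not called, at -0.23 at 6 h and -0.40 at 18 h. The median of the 8 at 6 h was 0.20 and at 18 h 0.04. Of 19 genes of SNAPc and snRNA gene transcription, 2 fell at 1 h, 1 at 6 h and 1 at 18 h, and 0 rose. At 1 h these were BRF2, a factor for RNA polymerase III (-0.79, p adjusted in edgeR = 0.0387), and ELL, an elongation factor (-0.63, p adjusted in edgeR = 0.0351). Leaving out CTRL replicate 1, CTRL replicate 3 or replicate 3 of JTE 1h ended both calls, and 1 listed gene was called without CTRL replicate 2. Of all genes, 154 were called with all libraries, and 70, 93 and 62 in the fits that ended both calls. Without CTRL replicate 2, 76 of all genes were called. At 6 h SNAPC3, another SNAPc subunit, fell from 33.0 ± 2.19 to 19.6 ± 1.60 CPM (log2 fold change -0.75, p adjusted in edgeR = 0.000179). At 18 h ZNF143, an activator of snRNA genes, fell by 0.62 (p adjusted in edgeR = 0.0174). SNAPC1, SNAPC2 and SNAPC4 were not called in any of the 4 comparisons. The median of the 19 at 18 h was -0.15, beside -0.01 over all genes. At 1 h and 6 h it was -0.02 and 0.07, beside 0.006 and 0.03. In nuclear RNA at 1 h it was 0.05, beside -0.006.

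Among 13 tested mitochondrial carriers, SLC25A11, which exchanges oxoglutarate, fell at 6 h (-1.19, p adjusted in edgeR = 5.48e-06) and at 18 h (-0.90, p adjusted in edgeR = 0.000482). SLC25A6, an ADP/ATP carrier, fell from 249.6 ± 11.9 to 139.4 ± 14.9 CPM at 18 h (-0.84, p adjusted in edgeR = 7.48e-07). No other carrier was called in mRNA, and the median of the 13 was 0.14 at 6 h and -0.04 at 18 h. In nuclear RNA the relative of UCP2, UCP3, rose at 1 h from 0.50 ± 0.05 to 1.97 ± 0.24 CPM (log2 fold change 1.98, SE 0.29, p adjusted in edgeR = 0.000145). These levels came from 10 to 11 counts in the CTRL libraries and 36 to 55 in JTE 1h. Over the 4 lists at 18 h, the number called was 3 without CTRL replicate 2, and in nuclear RNA it was 2 without JTE 1h replicate 3. Of all genes, 805 of 18724 and 1424 of 22965 were called in these fits.

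Neighbouring genes were compared because an uncut transcript can run into the next gene. Whether any did so was not tested here. Of all genes tested, 13.2% were called in mRNA at 6 h of JTE-607 and 5.39% at 18 h. In nuclear RNA at 1 h the share was 8.52%, with 332 genes lower and 1536 higher. CPAMD8 lies 341 bases past the F2RL3 end on the other strand. It fell in mRNA at 6 h of JTE-607, from 4.01 ± 1.69 to 1.34 ± 0.39 CPM (log2 fold change -1.57, SE 0.38, p adjusted in edgeR = 0.00448), and stood at -0.42 in nuclear RNA at 1 h (p adjusted in edgeR = 0.0542). SIN3B, 8507 bases upstream of F2RL3, was not called, with log2 fold changes of 0.005 at 6 h in mRNA and -0.13 in nuclear RNA. PPP5C, 17391 bases past CCDC8, was not called in the 4 comparisons, and PNMA8C on the other side was not tested for low counts.

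SNAPC5 is crowded by other genes, which bears on its counts. Its exons share 216 bases with MAP2K1 on the other strand and 583 bases with the long noncoding gene ENSG00000261351 on its own strand. A read pair that touches exons of several genes is not counted for any of them. MAP2K1 was not called in the 4 comparisons and read 68.3 ± 3.04 CPM in CTRL and 65.1 ± 3.56 CPM at 18 h. The number of read pairs in the shared bases is not known, and their part in the SNAPC5 counts was not tested. ENSG00000261351 rose in nuclear RNA at 1 h, from 2.86 ± 0.67 to 5.35 ± 0.91 CPM (log2 fold change 0.91, SE 0.19, p adjusted in edgeR = 0.00305). In mRNA it was not called, at -0.77 at 6 h and -0.87 at 18 h. RPL4, a ribosomal protein gene that ends 202 bases upstream of SNAPC5 on the same strand, was not called, at -0.21 at 18 h (p adjusted in edgeR = 0.0446). MIR4512, within SNAPC5, and the pseudogene RPL35AP32, 43358 bases downstream, held under 1 CPM and were not called where tested.

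Downstream of UCP2, DNAJB13 ends 4301 bases away on the other strand. It rose in nuclear RNA at 1 h of JTE-607, from 0.42 ± 0.09 to 1.08 ± 0.25 CPM (log2 fold change 1.36, SE 0.38, p adjusted in edgeR = 0.0265). Both levels were low, and 1536 of the 1868 genes called in that comparison rose. In mRNA DNAJB13 held under 1 CPM in all 4 groups compared and was not called. The pseudogene DPPA4P3, upstream of UCP2, was not tested for low counts. The counting used no strand, so a gene's count includes its antisense reads, and DNAJB13 and CPAMD8 reads cannot be told apart from reads off the facing strand.

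The 4 genes are compact by genomic span, though not all by transcript length. Their MANE Select transcripts span 3608 bases (F2RL3), 3236 bases (CCDC8), 4295 bases (SNAPC5) and 8172 bases (UCP2) of the genome, beside a median of 26936 bases over the 12577 genes. In the same order, these transcripts are 3334, 3236, 1296 and 1644 bases long, beside a median of 3291. They have 2, 1, 3 and 8 exons, beside a median of 9, and 6.90% of genes have 1 or 2 exons. All 4 fall in the shortest 20% of genes by span, which reached up to 8671 bases. As a description of all genes, with no test, 13.5% of that shortest 20% and 5.07% of the other genes were called lower in mRNA at 6 h of JTE-607. At 18 h the shares were 5.56% and 1.53%. The shortest 20% were also called higher more often than the other genes, in 6.64% and 5.33% of cases at 6 h and 4.53% and 2.94% at 18 h. Genes with neither AATAAA nor ATTAAA were called lower in 9.89% of cases at 6 h and those with either in 5.61%, and at 18 h in 3.42% and 1.94%. Genes with 1 or 2 exons were called lower in 14.6% of cases at 6 h and those with more in 6.17%, and at 18 h in 3.00% and 2.29%. Called higher at 6 h were 7.03% of genes with 1 or 2 exons and 5.48% of those with more. At 18 h more were called higher than lower, 5.07% of genes with 1 or 2 exons and 3.13% of those with more. These features overlap among genes and were not separated.

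Other genes had courses of a like shape over the 9 mRNA group means. Their changes were smaller at the time that chose the member, which the choice by largest fall favours, so this is no independent result. The group means that chose the members also entered the match. The measure, which compares shape and not size, was Pearson's r of log2(CPM + 0.5) among 10027 genes with a mean of at least 5 CPM, given as a description, since all points share their libraries. Nearest to F2RL3 were TATDN2 (r = 0.995), KNOP1 (0.989) and YARS2 (0.989), whose 6 h JTE-607 differences were -0.72, -1.12 and -0.98 on the log2 scale. Nearest to CCDC8 were ITFG2 (0.991), ACAD9 (0.991) and CHMP6 (0.991), at -1.36, -0.66 and -2.10 at 6 h of JTE-607. Nearest to SNAPC5 were CHID1 (0.988), OPLAH (0.988) and CD151 (0.985), at -1.02, -1.71 and -0.95 at 18 h of JTE-607. Nearest to UCP2 were SUMF2 (0.996), LYPLAL1 (0.994) and VRK2 (0.990), at -1.54, -0.53 and -0.57 at 18 h of JTE-607. Among the 4 genes themselves, r ran from -0.07 for F2RL3 with UCP2 to 0.73 for SNAPC5 with UCP2.

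The libraries held 16439848 to 62953314 counts in mRNA, with KCl 1h replicates 2 and 3 the deepest, and 16175394 to 25103205 in nuclear RNA. The K562 markers GATA1, HBG2, TFRC, TAL1 and BCR were at group means of 112.6 CPM or more across both fractions. Of the markers of other cell types, CD3E and ALB had group means under 1 CPM in every group, and COL1A1 reached 2.62 CPM. EPCAM, an epithelial marker, was high throughout, between 57.0 and 98.9 CPM, and in mRNA its group means stayed between 85.8 and 98.9 CPM. Its part in the results was not tested.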

How the data were processed

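Poly(A) mRNA (27 libraries) and nuclear RNA (15 libraries) of K562 cells were sequenced in 14 groups of 3. Deposited were counts of read pairs for each gene, not normalized. The authors trimmed and deduplicated the reads, aligned them to hg38 with STAR, kept unique alignments with introns up to 10000 bases, and counted pairs over exons with featureCounts without a strand option. The annotation release is not given in the sources used here. Pairs over exons of more than 1 gene, and deduplication without molecular identifiers, can lower counts.

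Under R 4.3.3, edgeR 4.0.16 fitted the counts of each fraction's libraries together (robust quasi-likelihood, TMM, filterByExpr), for 18095 genes in mRNA and 21929 in nuclear RNA, with p-values adjusted over all of them. Groups came from the sample labels. A simulation with known changes checked the fit. Genes named by rule were the 4 members, listed partners that were called, the 3 genes nearest in pattern, the next gene in each choice, and neighbours. The partners F2R, CUL7, SNAPC1, SNAPC2 and SNAPC4, which were not called, were named after their values were seen, and cell type markers serve as a check. The members and lists were chosen with earlier results of these data known. A few cell type markers are not reported here. Contrasts that share libraries with the choice are given without a test. Symbols, transcripts and 3′ ends came from GENCODE 44; 57532 of 58243 gene IDs were in it. Settings tried were DESeq2 1.42.0, other normalizations, no count filter, no fold threshold, fits of 2 groups, a replicate block, fits without genes over 1% of counts, and leaving out each library.

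The titles number the replicates. Deviations from group means of same-numbered libraries correlated between 0.103 and 0.891 in 12 of the 13 tested contrasts, every pair above 0.1, so the numbers pair these libraries. JTE 18h against IM 18h (lowest -0.08) and the contrasts with mRNA CTRL were not paired. The study's table of read totals numbers mRNA CTRL replicates 1 and 2 the other way round from the deposited files, so these numbers may be crossed. The contrasts with mRNA CTRL carry no test of the 4 genes.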

Additional observations from a re-analysis of the deposited data

Results flagged for a closer look

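For 5 results, the response to a treatment differed between 2 of its times, by edgeR's test of the difference with 3 libraries per group. With imatinib, F2RL3 was lower at 6 h than at 1 h by a log2 fold change of -1.74 (p adjusted in edgeR = 0.000321) and at 18 h than at 1 h by -2.60 (p adjusted in edgeR = 8.62e-07). SNAPC5 was lower at 18 h than at 1 h of imatinib by -0.997 (p adjusted in edgeR = 1.27e-06). With JTE-607, SNAPC5 was lower at 6 h than at 1 h by -1.12 (p adjusted in edgeR = 1.92e-06), and CCDC8 was lower at 18 h than at 1 h by -0.68 (p adjusted in edgeR = 0.0331). Every library of the later group lay below every library of the earlier group in these 5 results, which were taken because they were called. Of all genes, 8.20% were called in IM 6h and 29.3% in IM 18h against IM 1h. The shares in JTE 6h and JTE 18h against JTE 1h were 9.23% and 5.86%. The CCDC8 call ended in 4 of 6 fits that left out a library, and with scaling by library totals. Groups of 3 were not searched for single outlying libraries.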

How the results depend on the processing

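The replicate block changed neither the call nor the direction of any of the 44 tested values, and the main fits were unpaired. Of 576 log2 fold changes of the 4 genes under other settings, 553 kept their call and direction or, for values without a test, stayed within 1 SD, and 12 tested values changed sign; of 456 with a library left out, 424 kept theirs. With 3 replicates per group, p-values rest on the spread between these cultures. F2RL3 had the lowest count, 45 in a JTE 6h library, where its SE against CTRL was 0.32. Its SE was already 0.28 in JTE 1h against CTRL, where the JTE 1h libraries held at least 261 counts. The cause of the shifts below was not tested.

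Without the fold threshold, by construction more is called: 2 of 4 genes in IM 6h and 3 of 4 in IM 18h against IM 1h (UCP2 at 0.59), 2 of 2 in JTE 6h against IM 6h, 2 of 4 in nuclear JTE 1h and 4 of 4 in nuclear IM 18h, and 12, 8 and 4 listed partners in mRNA JTE 6h, mRNA JTE 18h and nuclear JTE 1h. The share of all genes called without the fold threshold was not computed, so these counts have no background to be read against. Without the count filter, 1 gene was called in KCl 3h against KCl 1h (F2RL3, -0.61, p adjusted in edgeR = 0.0399). That fit called 990 of 40963 genes there, beside 596 of 18095 with the filter. It called 1 partner and 237 of all genes in mRNA JTE 1h. A fit of the 2 groups called 0 partners in mRNA JTE 1h and 5 of 15259 genes. Scaling by library totals, added after seeing the data, called 0 of 2 in JTE 18h against JTE 1h (CCDC8 at -0.57) and 2 of 2 in JTE 6h against IM 6h (UCP2 at -0.70), added UCP2 at 0.62 in IM 18h against IM 1h, and gave SNAPC5 -1.98 at JTE 18h against CTRL. It moved the median of all genes from 0.002 to 0.11 and from 0.01 to -0.12 in the first 2 of these contrasts, and the calls from 357 lower and 704 higher to 232 and 1091, and from 2468 and 1842 to 3153 and 1422. By Spearman's rho, 1 of the 3 genes nearest to F2RL3 remained, and 0 of those nearest to CCDC8, SNAPC5 and UCP2. With 50 bases, 81.7% of ends held AATAAA or ATTAAA.

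These tested values changed sign. SNAPC5 in JTE 1h against IM 1h became 0.0067 with DESeq2, 0.0050 with RLE, 0.0073 without the filter and 0.0032 without genes over 1% of counts. It became -0.0066 in KCl 3h against KCl 1h without the filter, and in nuclear KCl 1h -0.0040 by totals, -0.026 without the filter and -0.035 in a fit of the 2 groups. UCP2 became -0.023 in JTE 1h against IM 1h and -0.00084 against KCl 1h by totals, and 0.0049 in nuclear IM 1h without the filter. CCDC8 became 0.0053 in IM 6h against IM 1h by totals.

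With each library left out in turn, partners called ran from 0 to 2 in mRNA JTE 1h, 4 to 6 in mRNA JTE 6h, 3 to 6 in mRNA JTE 18h and 1 to 2 in nuclear JTE 1h. The genes called ran from 0 to 1 in JTE 18h against JTE 1h from 0 to 2 in JTE 6h against IM 6h and from 2 to 3 in IM 18h against IM 1h. Tested values that changed sign lay in these ranges. SNAPC5 ran from -0.062 to 0.091 in JTE 1h against IM 1h, -0.031 to 0.14 against KCl 1h, -0.076 to 0.11 in KCl 3h against KCl 1h and -0.085 to 0.081 in nuclear KCl 1h. UCP2 ran from -0.030 to 0.099 in JTE 1h against IM 1h, -0.028 to 0.14 against KCl 1h, -0.063 to 0.016 in nuclear IM 1h and -0.072 to 0.020 in nuclear KCl 1h. CCDC8 ran from -0.20 to 0.053 in IM 6h and -0.18 to 0.0097 in IM 18h against IM 1h. Untested values against mRNA CTRL also changed sign, F2RL3 in IM 1h (-0.34 to 0.097), CCDC8 in IM 1h (-0.12 to 0.094), IM 6h (-0.23 to 0.027) and IM 18h (-0.18 to 0.00065), and SNAPC5 and UCP2 in IM 1h, JTE 1h and KCl 1h, and SNAPC5 in KCl 3h, within -0.15 and 0.11.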

Other observations

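Levels of the 4 genes can be compared with each other per length, as CPM per kilobase of the exons counted. In mRNA CTRL, UCP2 stood at 25.3, SNAPC5 at 17.4, CCDC8 at 11.8 and F2RL3 at 6.92 CPM per kilobase. In nuclear CTRL the order was UCP2 at 41.1, CCDC8 at 16.7, SNAPC5 at 15.7 and F2RL3 at 11.3. At 18 h of JTE-607 the mRNA levels were 6.26 for UCP2, 5.44 for CCDC8, 4.19 for SNAPC5 and 2.88 for F2RL3. The choice rests on falls from CTRL, which bears on these last levels. These orders were not tested. The exons counted for SNAPC5 total 2509 bases, beside 1296 in its MANE Select transcript, and their end lies 3333 genomic bases further on. Its level per length thus depends on the annotation.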
